A study of Rattus norvegicus with 15 samples.

Results

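The miR-203 locus of the rat is a single hairpin site from which RefSeq annotates a miRNA gene on each DNA strand. Its 4 mature names, rno-miR-203a-3p, rno-miR-203a-5p, rno-miR-203b-3p and rno-miR-203b-5p (written below without the rat prefix), were taken by name from a table of 600 mature miRNA names counted in kidney cortex, and all 4 were found there. No other name of miR-203 is in the table. The locus was chosen by measured values, the lower levels of its names on a salt-deficient diet in an earlier fit of these data, so their differences between that diet and the others are given here as descriptions without a test.

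The rats were of the strain PCK/CrljCrlPkhd1pck/CRL, in which a mutation of Pkhd1 gives cystic kidneys that model autosomal recessive polycystic kidney disease. They ate Dyets chow with 0.01%, 0.4% or 4% NaCl from 6 weeks of age for 8 weeks and had no other treatment. Every group carried the mutation, and there was no group without cysts. Small RNA was sequenced in 15 libraries, 5 per diet, and the title of the series names cyst growth on a salt-deficient diet and the epithelial sodium channel as its subject. The labels mention pooling of 2 to 3 rats and 2 such pools for each condition. How the 5 libraries of a diet relate to animals is therefore unclear, and p-values measure the spread between libraries, which may be technical.

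A miRNA gene is transcribed into a hairpin, which is cut into a duplex of a 5p and a 3p arm. An Argonaute protein keeps mostly 1 arm of the duplex as the guide, which pairs through its seed, bases 2 to 8, with target mRNAs and lowers their output. miR-203 is best known from stratified epithelia such as the epidermis, where in mice and human cells its 3p arm represses the transcription factor p63 and favours exit from the cell cycle and differentiation. In carcinoma cells it belongs, with the miR-200 family, to the miRNAs repressed by ZEB1, a driver of the epithelial to mesenchymal transition.

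The 4 mature sequences are shown because their seeds and their complementarity decide how the counts can be read. They are RefSeq sequences of build GRCr8, written 5′ to 3′ with the seed in capitals.
miR-203a-3p: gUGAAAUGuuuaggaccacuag
miR-203a-5p: aGUGGUUCuuaacaguucaac
miR-203b-3p: uUGAACUGuuaagaaccacugg
miR-203b-5p: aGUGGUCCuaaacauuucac
The seeds differ among all 4, and no other rat mature miRNA of the RefSeq table shares any of them. miR-203a-3p lies at chr6:137020756-137020777 and miR-203a-5p at chr6:137020718-137020738, both on the plus strand in the gene Mir203. miR-203b-3p lies at chr6:137020716-137020737 and miR-203b-5p at chr6:137020756-137020775, both on the minus strand in Mir3545, which is also called Mir203b. The site is in no other annotated gene and lies between Aspg and Kif26a. The nearest tested miRNA on the chromosome, miR-410-3p, is 2.44 Mb away.

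The hairpins show why the names form opposite-strand pairs. Capitals mark the mature arms, 5p first.
Mir203, chr6:137020705-137020801, plus strand: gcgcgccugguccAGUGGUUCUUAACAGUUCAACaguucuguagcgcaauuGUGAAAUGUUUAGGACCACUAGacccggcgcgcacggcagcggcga
Mir3545, chr6:137020691-137020805, minus strand: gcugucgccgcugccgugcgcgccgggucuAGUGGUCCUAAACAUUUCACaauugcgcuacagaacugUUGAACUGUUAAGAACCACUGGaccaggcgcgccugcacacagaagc
The reverse complement of the Mir3545 hairpin holds the whole Mir203 hairpin. miR-203b-5p is complementary to miR-203a-3p over 20 bases without a mismatch, and miR-203b-3p is complementary to miR-203a-5p over 20 bases. In the same sense, the 3p arms of miR-203a and miR-203b differ at 5 of 22 aligned bases and their 5p arms at 4 of 20. Whether strand was used in counting, and how many mismatches a read could have, is not given in the sources used here. Reads from one strand and from the other therefore cannot be told apart with certainty, and the "a" and "b" levels below are the levels of names, not of strands.

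Other pairs of opposite-strand names in the table bear on this point. Of the tested names, 25 pairs overlap by at least 10 bases on opposite strands, 23 of them outside miR-203. In 11 of those 23 the ratio of the pair varied less over the 15 libraries than independent reads would allow. For miR-183-5p and its opposite-strand name miR-3553, the SD of the log2 ratio was 0.012, where counting of independent reads would give 0.065. Names of such pairs are therefore not independent counts. The miR-203 pairs were not steady in this way. For miR-203b-5p over miR-203a-3p the SD of the log2 ratio was 0.317 against 0.086 from counting, and 0.15 with diet means taken out. For miR-203a-5p over miR-203b-3p it was 0.3 against 0.167, and 0.296 with diet means taken out. Other pairs also lay above counting, such as miR-3557-5p over miR-378a-3p (0.037 against 0.008). Whether the miR-203 names hold some reads in common was not tested.

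**Figure D1:**
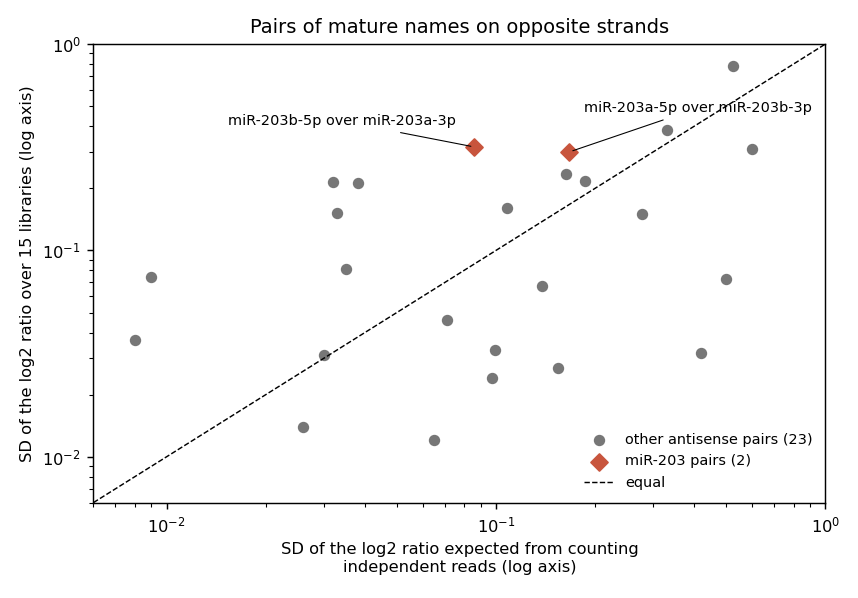
Each point is a pair of tested mature names that overlap on opposite strands, with the SD of their log2 read ratio over 15 libraries (vertical, log axis) against the SD expected from counting independent reads (horizontal, log axis). The points of 11 of the 23 other pairs lie below the line of equality, and both miR-203 pairs (diamonds, 0.317 and 0.3) lie above it.

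Libraries held 4.17 to 7.83 M reads (M for mega). The mean was 6.55 ± 0.769 M (SD, n = 5) on 0.01% NaCl, 5.78 ± 1.0 M on 0.4% and 4.91 ± 0.541 M on 4%, so depth and diet moved together. Names from other species took 8.05% to 15.8% of the reads of a library. Levels are given as scaled CPM, CPM computed on library sizes that were corrected by TMM factors, and reads are given where depth matters.

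miR-203a-3p was the most read of the 4 names, and the order miR-203a-3p, miR-203b-3p, miR-203b-5p, miR-203a-5p held in all 15 libraries. The 4 names held 61.7%, 24.7%, 10.6% and 3.01% of their joint reads in that order. By mean scaled CPM they ranked 96th, 132nd, 188th and 284th of the 600 names.

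rno-miR-203a-3p, the arm with the known targets, had 290.3, 277.6, 263.8, 270.4 and 349.3 scaled CPM in libraries 1 to 5 of the 0.01% diet. On 0.4% NaCl the libraries had 757.1, 510.7, 536.7, 387.7 and 339.9, and on 4% they had 321.1, 410.3, 637.9, 361.1 and 596.4. The salt-deficient libraries were low and close together, and 4 of 5 lay below every library of the 0.4% diet. Library 5 of the 0.01% diet reached into the lower end of both other diets, which overlapped each other widely. The means were 290.3 ± 34.4, 506.4 ± 162 and 465.4 ± 143 (SD, n = 5 each). In reads, the ranges were 1517 to 2135 on 0.01% NaCl, 2091 to 4182 on 0.4% and 1660 to 3501 on 4%, although the salt-deficient libraries were the deepest on average.

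rno-miR-203b-3p is the arm of the minus-strand gene with more reads. It had 69.1, 88.0, 58.6, 110.4 and 103.6 scaled CPM on 0.01% NaCl, then 280.8, 232.8, 251.7, 175.5 and 208.2 on 0.4%, and 143.0, 141.9, 226.9, 154.9 and 285.1 on 4%. All 5 salt-deficient libraries lay below all 10 others. Of all tested names, 7.51% were lower without overlap against 0.4% NaCl and 9.63% against 4%. The share lower than both diets at once was not computed. The means were 85.93 ± 22.1, 229.8 ± 40.3 and 190.3 ± 63.5 (SD, n = 5 each), and 3 libraries of the 4% diet lay below every library of the 0.4% diet.

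rno-miR-203b-5p, the name complementary to miR-203a-3p, had 35.4, 36.2, 30.3, 36.9 and 39.8 scaled CPM on 0.01% NaCl. It had 144.3, 90.3, 83.3, 71.9 and 72.5 on 0.4%, and 51.4, 83.1, 132.5, 61.3 and 115.9 on 4%. Here too the salt-deficient libraries lay below all 10 others, and they were the tightest group of any name, with a coefficient of variation of 9.64% against 32.4% on 0.4% and 39.1% on 4%. Counting alone would give 6.87% at the mean of 0.01% NaCl. The means were 35.69 ± 3.44, 92.46 ± 30 and 88.85 ± 34.7 (SD, n = 5 each).

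rno-miR-203a-5p, the scarce arm of the plus-strand gene, had 7.1, 7.9, 6.0, 16.0 and 8.5 scaled CPM on 0.01% NaCl, 42.5, 29.1, 28.9, 20.7 and 22.3 on 0.4%, and 14.7, 26.6, 29.0, 15.7 and 31.7 on 4%. The salt-deficient libraries lay below every library of the 0.4% diet, while library 4 of that group overlapped the lowest libraries of the 4% diet. The means were 9.091 ± 3.95, 28.69 ± 8.63 and 23.53 ± 7.84 (SD, n = 5 each). These levels rest on 36 to 103 reads per library on 0.01% NaCl, where counting alone gives a coefficient of variation of 13.5%.

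**Figure D2:**
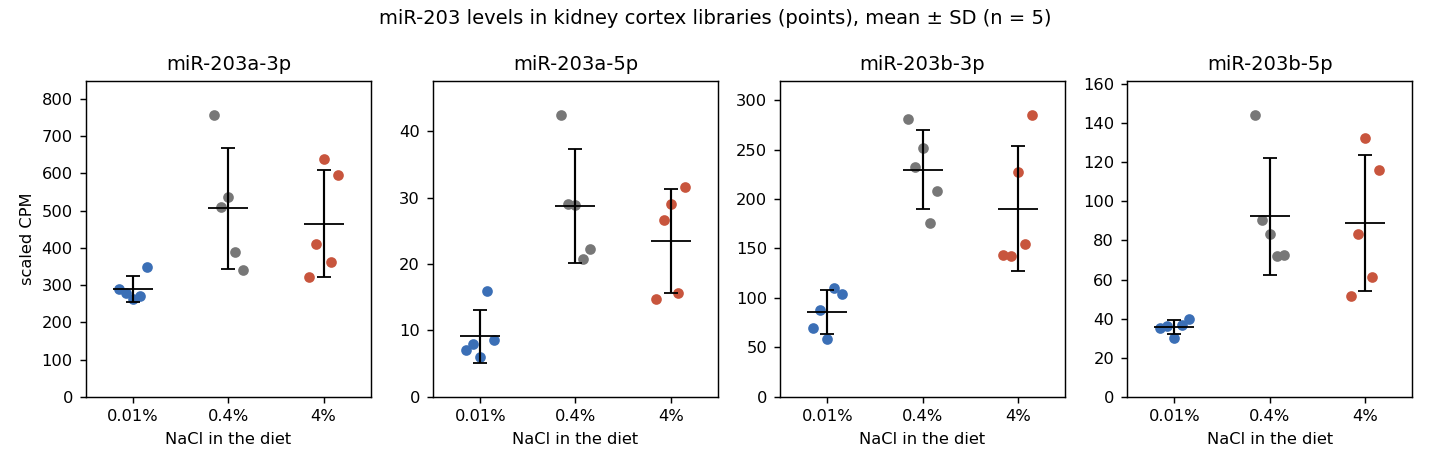
Scaled CPM of each miR-203 name (vertical, a separate axis per panel that starts at 0) by NaCl content of the diet, with 5 libraries per diet as points and the mean ± SD in black. For miR-203b-3p and miR-203b-5p all 5 libraries on 0.01% NaCl lie below the 10 others, while the 0.4% and 4% libraries overlap for every name.

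All 4 names were lower on 0.01% than on 0.4% NaCl. In 1 edgeR fit over the 15 libraries and 519 tested names, miR-203a-3p had a log2 fold change of -0.80 ± 0.22 (SE), with -1.65 ± 0.30 for miR-203a-5p, -1.42 ± 0.23 for miR-203b-3p and -1.37 ± 0.25 for miR-203b-5p. As linear ratios, the 0.4% level was 1.74 times the 0.01% level for miR-203a-3p and 3.14, 2.67 and 2.59 times for the other names in that order. The median of all tested names was -0.003 and the median absolute change 0.351. The 4 names are among the 47 called lower at an adjusted p under 0.05, which are 9.06% of those tested, and 3 of the 4 had no overlap between these diets, as did 7.51% of tested names in that direction. In the opposite direction 7.71% of names were called and 6.94% had no overlap. Because this contrast chose the names, nothing is read from these counts. In bulk cortex, fewer cells that carry miR-203 and less miR-203 per cell cannot be told apart.

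Against 4% NaCl the salt-deficient levels were again lower, with log2 fold changes of -0.68 ± 0.22 (SE) for miR-203a-3p, -1.37 ± 0.30 for miR-203a-5p, -1.15 ± 0.23 for miR-203b-3p and -1.31 ± 0.25 for miR-203b-5p. This comparison shares its 0.01% libraries with the previous one and is likewise only a description. The 4 names are among the 68 called lower (13.1% of tested names), but miR-203a-3p was called in 13 of 25 alternative fits and the other 3 names in all 25. miR-203b-3p and miR-203b-5p had no overlap between these diets, as did 9.63% of tested names in that direction. In the opposite direction 7.32% of names were called and 5.01% had no overlap. In both comparisons the share of higher against lower calls over all names moved with the scaling. With library totals only, 25 names were higher and 79 lower against 0.4% NaCl, in place of 40 and 47, and 14 were higher and 117 lower against 4%, in place of 38 and 68. With 0.4% NaCl as reference, the median of all names then shifted by -0.189, and relative to that median the 4 names stood at -0.77, -1.59, -1.39 and -1.34 in the order given above. With 4% NaCl as reference the shift was -0.236, and the names stood at -0.67, -1.33, -1.13 and -1.30.

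The comparison of 4% with 0.4% NaCl was tested. It is not fully independent of the choice of names, which also used the 0.4% and 4% libraries, and its spread was estimated over all 15 libraries. With edgeR, 0 of the 519 names (0%) passed an adjusted p of 0.05 (Benjamini-Hochberg). DESeq2 and limma-voom also called 0, and 27 names had an unadjusted p under 0.05. None of the 4 miR-203 names was without overlap between these diets, beside 0.578% of tested names that were higher and 0.193% that were lower without overlap. The log2 fold change of miR-203a-3p was -0.12 ± 0.22 (SE; 95% interval -0.59 to 0.34; edgeR adjusted p = 0.981). For miR-203b-3p it was -0.27 ± 0.22 (interval -0.75 to 0.21; edgeR adjusted p = 0.967). miR-203a-5p gave -0.29 ± 0.29 (interval -0.90 to 0.33) and miR-203b-5p -0.06 ± 0.25 (interval -0.59 to 0.47), with edgeR adjusted p of 0.981 and 0.996. The directions of miR-203a-3p and miR-203b-5p were not stable. Without library 1 of the 0.4% diet they were 0.08 and 0.17, and miR-203b-5p was 0.10 and 0.04 without library 1 or library 4 of the 4% diet and 0.01 with library totals only.

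**Figure D3:**
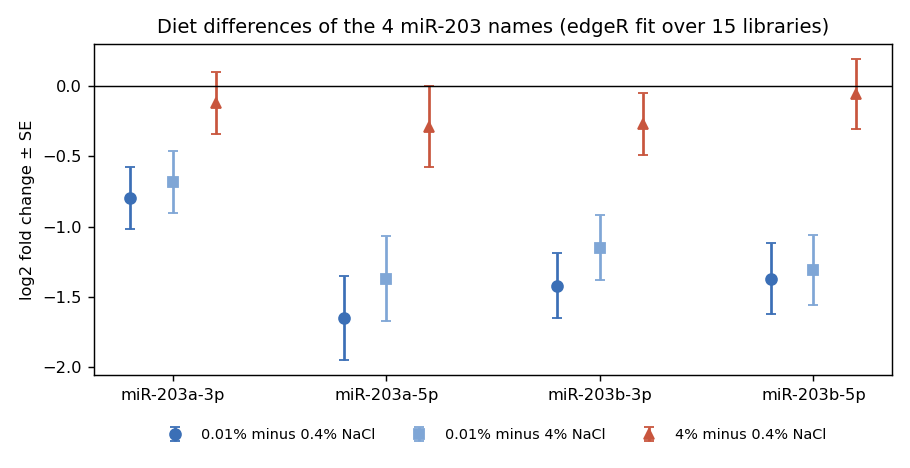
Log2 fold change ± SE (vertical) of each miR-203 name for the 3 pairs of diets, from 1 edgeR fit over 15 libraries. The values of the salt-deficient diet minus another diet run from -0.68 to -1.65, and those of 4% minus 0.4% NaCl from -0.06 to -0.29.

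The authors' deposited table of edgeR results gives changes in the opposite sense, with the salt-deficient libraries as the reference. The authors' deposited table lists log2 fold changes of 0.77 for miR-203a-3p, 1.62 for miR-203a-5p, 1.39 for miR-203b-3p and 1.34 for miR-203b-5p for 0.4% over 0.01% NaCl. For 4% over 0.01% NaCl the authors' deposited table lists 0.68, 1.36, 1.14 and 1.31 in the same order. It was made from the same counts and adds no independent measurement.

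The balance among the 4 names also differed by diet. miR-203a-3p was lower by less than the other 3 names on 0.01% NaCl, so the miR-203a names made up 71.3 ± 3.64% of the joint reads there (SD, n = 5; range 66.0% to 75.2%), against 61.8 ± 3.31% on 0.4% (56.3% to 65.3%) and 63.8 ± 1.88% on 4% (61.0% to 66.0%). The salt-deficient libraries lay above all libraries of the 0.4% diet, and the lowest of them was above the highest of the 4% diet by less than the rounding of these values. The complementary pair showed the same shift. The log2 ratio of miR-203b-5p to miR-203a-3p reads was -3.02 ± 0.113 on 0.01% NaCl, -2.45 ± 0.167 on 0.4% and -2.43 ± 0.164 on 4%, with no overlap between the salt-deficient libraries and the others. In the other complementary pair, miR-203a-5p over miR-203b-3p, the values were -3.28 ± 0.306, -3.03 ± 0.19 and -3.02 ± 0.366, and all diets overlapped. Among the 23 other opposite-strand pairs, the ratio did not overlap between 0.01% and 0.4% NaCl in 2. Between 0.01% and 4% NaCl the ratio of let-7a-5p to miR-3596a, alone among those pairs, did not overlap.

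Arm use was measured as read shares of the 5p and 3p names of each gene, which are shares of names and not of strands. Under the Mir203 names the 3p name held 96.9 ± 1.42% of reads on 0.01% NaCl, 94.6 ± 0.438% on 0.4% and 95.2 ± 0.793% on 4% (SD, n = 5 each). In 4 of the 5 salt-deficient libraries the share was 97.2% or more, above every other library, and in library 4 it was 94.4%, within the range of the others. For single libraries the 95% Wilson interval reached at most 1.05 percentage points to either side. Under the Mir3545 names the 3p name held 70.0 ± 3.95%, 71.7 ± 3.55% and 68.5 ± 5.02%, with all diets overlapping and intervals of at most 4.01 points to either side. These intervals cover counting error only.

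Between 4% and 0.4% NaCl none of 6 such measures passed an exact two-sided permutation test on the 10 libraries, in which the smallest possible p is 0.00794. The 3p share of Mir203 differed by 0.603 percentage points (exact p = 0.151, adjusted p = 0.46 over 6 measures), and without library 2 of the 4% diet by 0.923 points (exact p = 0.0159, unadjusted). The log2 ratio of miR-203b-3p to miR-203a-3p differed by -0.194 (exact p = 0.183, adjusted p = 0.46). The 3p share of Mir3545 differed by -3.17 points (exact p = 0.23, adjusted p = 0.46) and the miR-203a share of the joint reads by 1.93 points (exact p = 0.325, adjusted p = 0.488). The ratios of the complementary pairs differed by 0.021 for miR-203b-5p over miR-203a-3p (exact p = 0.857) and by 0.00485 for miR-203a-5p over miR-203b-3p (exact p = 0.992), each with adjusted p = 0.992. Without library 5 of the 0.4% diet the difference of the miR-203a share was 0.549 points and that of the miR-203b-3p to miR-203a-3p ratio -0.0951. The difference of the Mir3545 share was -1.81 points without library 2 and -1.83 without library 3 of the 4% diet.

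**Figure D4:**
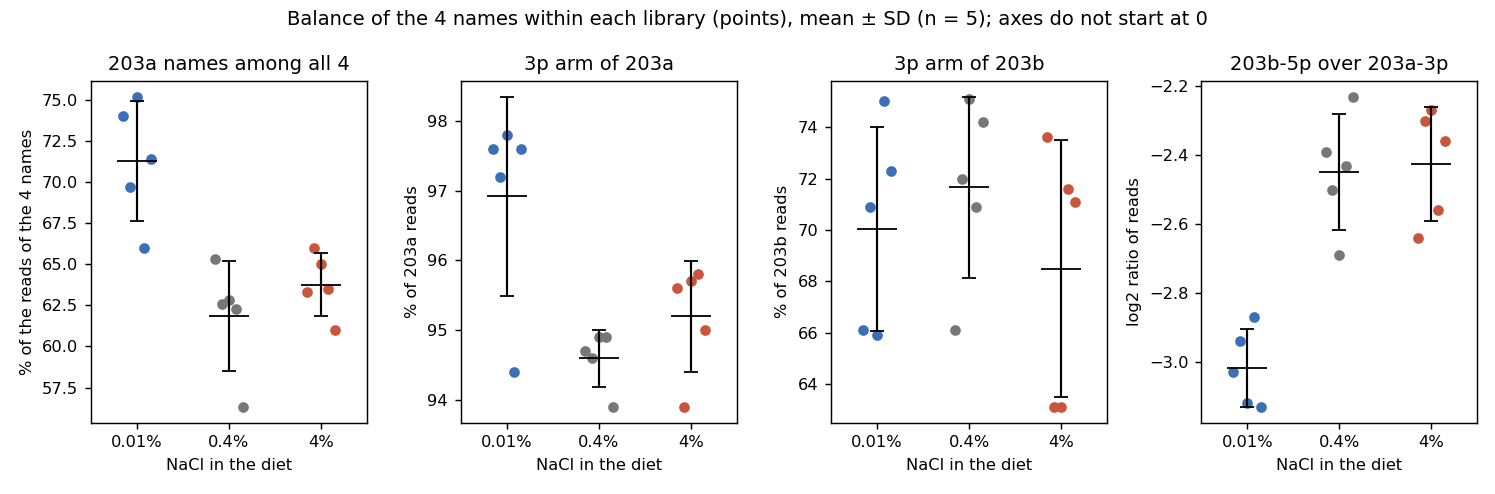
Read shares in percent and a log2 read ratio (vertical axes, which do not start at 0) by NaCl content of the diet, with 5 libraries per diet as points and the mean ± SD in black. The miR-203a names hold 71.3% of the joint reads on 0.01% NaCl against 61.8% and 63.8% on the other diets, while the 3p share of miR-203b reads overlaps among all diets.

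Within diets the 4 names deviated together from library to library, a relation that the choice of names had not used. Over the 15 libraries, with diet means taken out of log2 CPM, all 6 pairs of names were positively correlated. For miR-203a-3p and miR-203b-5p Pearson's r was 0.935 (permutation p = 4e-05, adjusted p = 0.00024 over 6 pairs) and Spearman's rho 0.879 (permutation p = 0.00029, adjusted p = 0.00087), and r was 0.88 without the 2 libraries farthest from the median of miR-203a-3p. For miR-203a-3p and miR-203a-5p r was 0.687 (permutation p = 0.00808, adjusted p = 0.00808) and rho 0.732 (permutation p = 0.00741, adjusted p = 0.00741), with r of 0.582 without 2 libraries. For miR-203a-3p and miR-203b-3p r was 0.726 (permutation p = 0.00282, adjusted p = 0.00338) and rho 0.711 (permutation p = 0.0045, adjusted p = 0.00675), with r of 0.703 without 2 libraries. The remaining pairs had r of 0.745 to 0.796 and adjusted p of 0.00081 to 0.00338. The names share library, scaling and possibly reads. The median r of miR-203a-3p with the 515 other tested names was -0.079. The 5 closest of these names had r of 0.86 to 0.907, higher than its r with miR-203a-5p or miR-203b-3p.

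**Figure D5:**
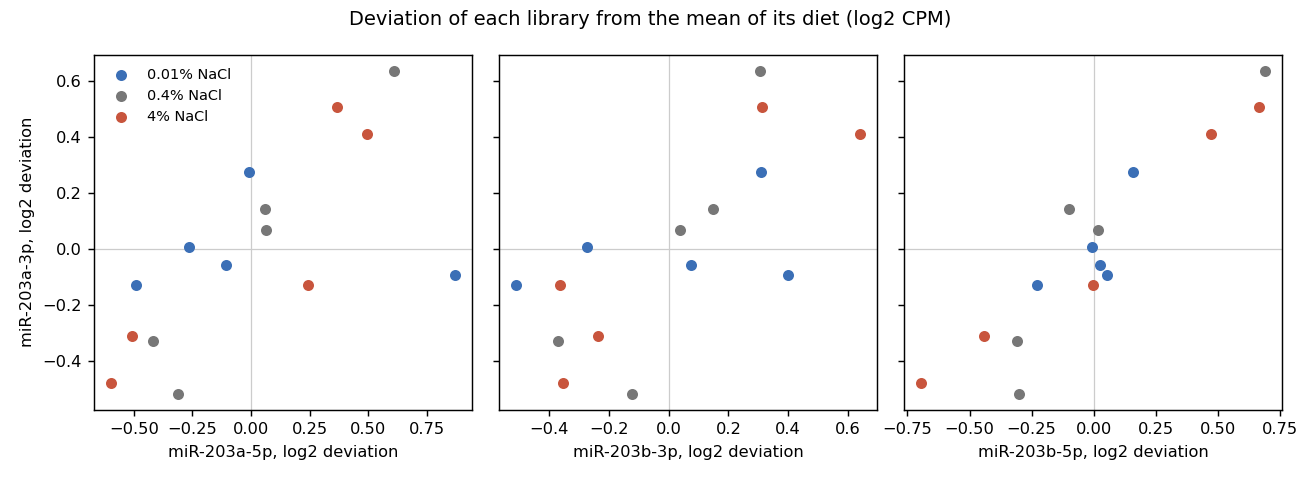
Each point is a library, placed by its log2 CPM deviation from the mean of its diet for miR-203a-3p (vertical) and for each of the other miR-203 names (horizontal). The points rise together in all 3 panels, with r = 0.935 for miR-203b-5p, 0.726 for miR-203b-3p and 0.687 for miR-203a-5p.

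The tested names most like miR-203a-3p over the 15 libraries were miR-499-5p (r = 0.942), a miRNA of a myosin gene in heart and slow muscle, miR-365-3p (0.902), miR-219a-2-3p (0.892), miR-378a-5p (0.866) and miR-378a-3p (0.839). miR-219a-2-3p had a mean of only 1.2 scaled CPM. With diet means taken out, the most like were miR-499-5p (0.907), miR-219a-2-3p (0.898), miR-135a-5p (0.875), miR-365-3p (0.874) and miR-326-3p (0.86). For miR-203b-3p the closest over all libraries were miR-378a-3p (0.898), its opposite-strand name miR-3557-5p (0.887), the tubule miRNA miR-194-5p (0.875), miR-653-5p (0.87) and miR-381-3p (0.857). With diet means taken out they were miR-192-5p (0.866), also of the kidney tubule list, then miR-378a-3p (0.762), miR-365-3p (0.756), miR-107-3p (0.75) and miR-499-5p (0.749). These correlations are descriptions over 15 points that share diet and scaling. The ratio to miR-203a-3p was compared over 233 names that averaged 200 reads or more, and the steadiest was that of miR-499-5p, with an SD of 0.163 on the log2 scale.

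Other epithelial miRNAs did not all differ in the same direction. The lists here and in the next paragraph were chosen with earlier results of these data known. Their calls in comparisons with the salt-deficient diet are therefore descriptions. In a list of 14 epithelial and keratinocyte miRNAs, 4 were called higher and 1 lower on 0.01% than on 0.4% NaCl. The median log2 fold change was 0.12, beside -0.003 over all names, of which 16.8% were called, 7.71% higher and 9.06% lower. The skin miRNA miR-205 had an edgeR log2 fold change of 1.81 ± 0.40. It averaged 96.5 ± 50.9 scaled CPM on 0.01% NaCl and 27.4 ± 9.87 on the 0.4% diet. miR-200c-3p (1.17 ± 0.24) and miR-141-3p (1.04 ± 0.20), from 1 of the miR-200 loci, and the keratinocyte miRNA miR-31a-5p (1.06 ± 0.22) were also higher. miR-184, known from cornea and epidermis, was the lower one (-1.31 ± 0.34). Of the other miR-200 locus, miR-200a-3p had 0.09, miR-200b-3p 0.04 and miR-429 0.16, and none of them was called. Against 4% NaCl the same 5 miRNAs were called in the same directions, from -2.11 ± 0.34 for miR-184 to 1.59 ± 0.40 for miR-205. The list median was 0.15, beside -0.01 over all names (20.4% called, 7.32% higher and 13.1% lower). Between 4% and 0.4% none of the 14 was called.

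Markers of other cells are given beside the miR-203 levels. Over all names, 9.06% were called lower and 7.71% higher on 0.01% than on 0.4% NaCl (median -0.003). Against 4% the shares were 13.1% and 7.32%. In the kidney tubule list of 8, 1 name was lower on 0.01% than on 0.4% NaCl, miR-194-5p (-0.60 ± 0.14), and the median was -0.09. The summed level of the 8 ran from 376500 to 673900 scaled CPM on 0.01% NaCl, 292800 to 485200 on 0.4% and 340600 to 415800 on 4%. Most of it was miR-10a-5p, with means of 354500, 243400 and 232800 scaled CPM in that order. Next came miR-30a-5p with 66610, 56770 and 51530, and miR-192-5p with 43940, 60120 and 50460. Against 4% NaCl miR-194-5p was again lower (-0.50 ± 0.14), while miR-30a-5p (0.37 ± 0.12) and miR-10a-5p (0.61 ± 0.20) were higher. The summed level of the 5 stromal and smooth muscle miRNAs ran from 44020 to 76180 scaled CPM on 0.01% NaCl, from 20970 to 38500 on 0.4% and from 25710 to 32850 on 4%, with the salt-deficient libraries above all others. Most of this sum was miR-143-3p, with a mean of 49600 scaled CPM on 0.01% NaCl, where the next of the 5, miR-199a-3p, had 2998. Of the 5, the smooth muscle miRNA miR-143-3p (0.83 ± 0.18) and both arms of miR-199a (0.71 ± 0.23 for miR-199a-5p and 0.64 ± 0.18 for miR-199a-3p) were higher on 0.01% than on 0.4% NaCl, with a list median of 0.64, and miR-143-3p (1.01 ± 0.18) alone of the 5 was called higher than on 4%. The summed level of 6 leukocyte miRNAs ran from 3102 to 3489, 2618 to 4049 and 2375 to 5471 in the same order, with none called against 0.4% NaCl and the lymphocyte miRNA miR-150-5p (-1.11 ± 0.32) lower than on 4%. For the 2 endothelial miRNAs the sums were 10040 to 12620, 9742 to 12980 and 9553 to 11770. The red blood cell list, with 2 of 3 members tested, had sums of at most 61.05, and no endothelial or red blood cell miRNA was called in any comparison. Between 4% and 0.4% NaCl none of the listed miRNAs of any cell type was called. No listed miRNA was at 0 in all libraries. The part of cell makeup in the miR-203 levels was not tested.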

How the data were processed

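Small RNA libraries from kidney cortex were made, per the labels' protocols, with a TruSeq kit and read on an Illumina sequencer. Cutadapt, Bowtie and DESeq are the tools in the submitters' processing notes. The build, miRNA database, strand setting and rule for reads with several matches were not given in the sources used here. Raw counts were deposited by the authors for 445 rat and 155 other-species names and used as they are. The authors also deposited log2 fold changes, of which their edgeR values are cited. The 90 per-sample columns in those tables were not used.

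R 4.3.3 and edgeR 4.0.16 were used to fit the counts. Of 600 names, 519 passed filterByExpr, the 4 miR-203 names included, and 81 were left out. A single quasi-likelihood fit of the 3 diets (TMM, robust) gave the contrasts, adjusted over 519 names (threshold 0.05). Correlations used log2 CPM with a prior count of 2 and 100000 permutations within diets, and log2 read ratios a pseudocount of 0.5. Sequences and coordinates are from RefSeq, GRCr8, which matched 402 of 445 rat names. The names and lists were chosen with earlier results of these data known. The 5 names most like each of the 2 main members were named by a fixed rule, and list members where they passed or belong to the miR-200 family or miR-205. No 2 libraries of a diet were alike within counting error, and each was counted singly. Intervals cover counting error only, since PCR copies cannot be told from molecules. Alternatives were other scalings, filters and tools (DESeq2 1.42.0, limma 3.58.1), each library left out in turn and, chosen after seeing the data, the 3 libraries richest in other-species names left out. Of the 6 shares and ratios, 4 (the 3p share of Mir3545, the complementary-pair ratios and the miR-203a share) were also added after seeing the data.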

Additional observations from a re-analysis of the deposited data

Results flagged for a closer look

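In 30 groups of 5 libraries (4 names and 6 read shares or ratios in 3 diets), a value that stood far from its group by Dixon's test was found in 3, where chance flags about 1 in 20. In the salt-deficient diet, library 4 was the highest for miR-203a-5p, with 16.0 scaled CPM, and its gap to the next library was 0.747 of the range of the group. The same library had the lowest 3p share of miR-203a reads of its diet, 94.4%, with a gap of 0.835 of the range. It had 103 reads of miR-203a-5p, where the other 4 libraries had 36 to 52, so both values rest on the same reads. In the 0.4% diet, library 1 was the highest for miR-203b-5p, with 144 scaled CPM and a gap of 0.746 of the range. It was also the highest of its diet for the other 3 miR-203 names.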

How the results depend on the processing

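All 200 refits of the 4 names for the salt-deficient diet minus another diet (25 alternatives for each name and reference) kept a negative log2 fold change and moved by less than the spread between libraries. The extremes were -2.05 for miR-203a-5p without the 3 libraries richest in other-species names and -0.56 for miR-203a-3p against 4% NaCl without 1 library. The call of miR-203a-3p against 4% NaCl was lost in 12 of 25, among them without libraries 1, 2, 3 or 4 of the 0.01% diet, 2 of the 0.4% diet and 2, 3 or 5 of the 4% diet, with values of -0.82 to -0.56 over all 15 left-out libraries. Between 4% and 0.4% NaCl none of 100 refits was called and 5 changed sign. miR-203b-5p was 0.01 with library totals only, and without single libraries it ran from -0.24 to 0.17 and miR-203a-3p from -0.25 to 0.08. The count of called names between 0.01% and 0.4% NaCl, 87, fell to 55 when only names with a mean of at least 10 CPM were kept, 339 of them, and 54 of those were among the 87. Without single libraries the difference of the 3p share of Mir203 between 4% and 0.4% NaCl ran from 0.417 to 0.923 points, that of the miR-203b-5p to miR-203a-3p ratio from -0.039 to 0.0757 and that of miR-203a-5p to miR-203b-3p from -0.148 to 0.0818, so the last 2 have no stable direction (libraries 2 and 3 of the 4% diet and 3 of the 0.4% diet each turned both, and 4 and 5 of the 0.4% diet the last). The cause of these changes was not tested. The 6 correlations kept their sign and their side of the threshold with library totals only and with a prior count of 0.5 (r of 0.612 to 0.935). No paired analysis was made, because the labels give no pairing of libraries across diets. They number no replicates, and libraries 1 to 5 follow the order of the samples within a diet. At 36 to 103 reads, miR-203a-5p on 0.01% NaCl is the value most limited by depth.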
